A study of Manihot esculenta with 8 samples.

Results

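A set of 62 abundant cassava gene IDs stood 1.5- to 4-fold higher in shoots after 3 h at 4 °C than in control shoots. They are 62 of the 31901 IDs in the deposited count table. An ID was taken when its control mean was at least 100 CPM (the count of an ID scaled to one library size common to all libraries), its cold mean was at least 1.5 and below 4 times that, and its lowest cold library lay above its highest control library. Levels, fold changes and the gap between the groups therefore chose the members and are given as a description. Of the 2012 IDs with a control mean of at least 100 CPM, 97 were at least 1.5-fold higher in the cold and 96 of these were below 4-fold. The groups overlapped for 34 of the 96, which leaves the 62.

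The cold group held 4 libraries of shoots from wild-type cassava (Manihot esculenta) seedlings of the cultivar TM12, grown for 2 weeks and then kept at 4 °C in the light for 3 h. The control group held 4 libraries of wild-type TM12 shoots with no treatment. Growth temperatures were 20 °C and 18 °C for day and night in both groups, humidity was 60%, and light and dark lasted 16 h and 8 h. Whether each library is a plant or pool of its own is not labelled, so p-values measure only the spread between these libraries, which may be partly technical. Neither the age of the control seedlings nor the hour at which control shoots were cut is labelled, so a difference in either cannot be told apart from the cold treatment. Whole shoots hold many cell types, and in such samples more cells of a type and more RNA per cell cannot be told apart.

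Cassava is a tropical root crop that is sensitive to chilling. In plants, cooling stiffens membranes, raises calcium in the cytosol and slows enzymes, and in Arabidopsis the CBF transcription factors rise within hours and switch on cold-regulated genes that encode protective proteins. The IDs described here were already abundant in control shoots, so a moderate fold change of each adds many counts. The deposited table carries no gene names, and none of its IDs matched the RefSeq gene table used for names, so no role is assigned to any member. The 62 are given by rank of their gain in mean CPM, and 2 of them by ID. The shoot tissue could not be checked against marker genes for the same reason.

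Library totals ran from 62798223 to 100031792 gene counts in cold libraries and from 82385404 to 96516912 in control libraries. The smallest count of any member in any library was 4803, which carries a counting error of 1.44%, so the spread reported below is between libraries and not from counting. Cold replicates 1 and 3 and control replicate 1 stood apart in how much of the library the 1000 IDs of highest count took up, at 36.4%, 38.1% and 37.6% against 33.4% to 34.6% in the other 5 libraries. The main shares, folds and counts are also given without these 3 libraries.

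The members took 3.77% ± 0.29 of all gene counts in cold libraries and 1.85% ± 0.17 in control libraries (SD, n = 4 each). The share was 4.17%, 3.60%, 3.80% and 3.52% in cold replicates 1 to 4, and 1.84%, 1.96%, 1.61% and 1.98% in control replicates 1 to 4. Cold replicate 1 was the highest of its group and control replicate 3 the lowest of its group. The gain was 1.92 percentage points, a cold share 2.04 times the control share. Without cold replicates 1 and 3 and control replicate 1 the gain of the same 62 was 1.71 points. Because CPM shares add up to a fixed total, a gain of one group of IDs is matched by a loss elsewhere. Summed over all IDs whose mean was higher in the cold, the rises came to 11.8 points, of which the 62 members made up 16.3%. This sum includes rises that are within the spread of the libraries. Among IDs with a control mean of at least 100 CPM the rises came to 5.61 points, and the members held 34.3% of them.

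**Figure D1:**
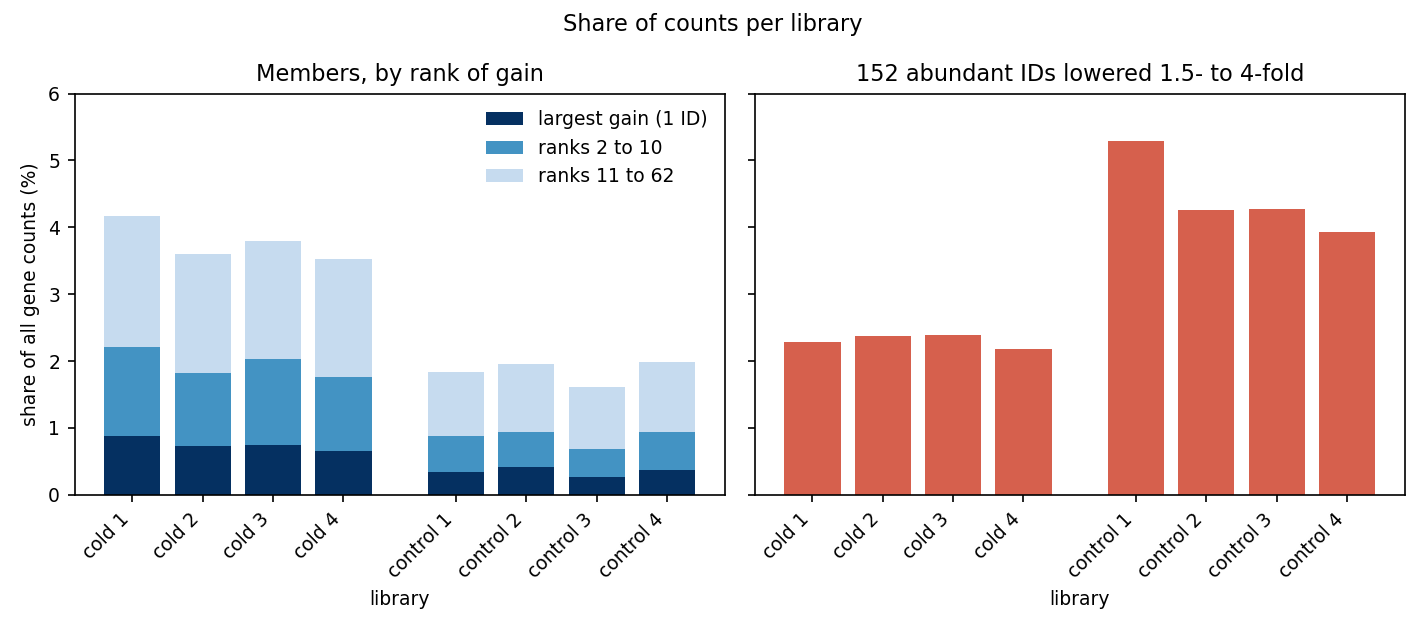
Share of all gene counts (%, vertical axis from 0) in each library, cold libraries left of control libraries. Left, the 62 members stacked as the ID with the largest gain, ranks 2 to 10 and ranks 11 to 62, which together reach 3.52% to 4.17% in cold and 1.61% to 1.98% in control libraries. Right, the 152 IDs that meet the same rule in the downward direction, at 2.18% to 2.39% in cold and 3.93% to 5.29% in control libraries.

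The same rule turned downward took 152 IDs, against the 62 members. It asked for a control mean of at least 100 CPM, control 1.5 to 4 times cold, and every cold library below every control library. Both rules set the level floor on the control mean, so IDs abundant only in the cold could not be members. The counts are therefore not a like comparison of the directions. The lowered set took 2.31% ± 0.10 of counts in cold and 4.44% ± 0.59 in control libraries (SD, n = 4 each), a difference of -2.13 points. Without the 3 libraries that stood apart its mean share was 2.28% in cold and 4.15% in control libraries, a difference of -1.88 points. The members reached a gain of similar size with fewer IDs. Their median gain was 163.7 CPM and the median fall of the lowered set was 76.8 CPM. Median control means were 178.1 and 164.8 CPM, and median folds were 1.81 upward and 1.88 downward. From a like control mean, a rise by some fold adds more CPM than a fall by that fold removes. The medians of gain and fall therefore differ in part by this arithmetic. Of the members, 8 (12.9%) held at least 50% of the gain, and of the lowered set 22 IDs (14.5%) held the same part of its fall. Both sets were chosen by this contrast, so the difference between them was not tested. All 2012 abundant IDs together took 46.0% ± 1.7 of counts in cold and 46.7% ± 1.6 in control libraries.

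The gain was led by MANES_10G027600, on chromosome 10 by the number in its ID. It stood at 8807, 7279, 7502 and 6550 CPM in cold replicates 1 to 4, and at 3404, 4195, 2723 and 3718 CPM in control replicates 1 to 4. Its lowest cold library was 1.56 times its highest control library. The means were 7535 ± 941 CPM in cold and 3510 ± 617 CPM in control libraries (SD, n = 4 each), a gain of 4025 CPM and a log2 fold change of 1.14 (SE 0.25) in edgeR. This ID alone held 20.9% of the gain of the 62 and had the largest gain of all IDs in the table. In cold libraries it had the highest mean CPM of all IDs, ahead of an ID at 4239 CPM. In control libraries 2 IDs stood above it, at 4833 and 3514 CPM. CPM is not corrected for transcript length, and no lengths could be paired with the IDs, so these orders are of shares of counts and not of transcript numbers. Without this member the other 61 took 3.02% ± 0.20 of counts in cold and 1.496% ± 0.113 in control libraries, so the cold share was 2.02 times the control share.

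The member of rank 2 was MANES_04G083800, on chromosome 4. Its cold replicates 1 to 4 stood at 3365, 1903, 2191 and 1957 CPM, and its control replicates 1 to 4 at 1188, 954.3, 808.1 and 1200.5 CPM. The groups did not overlap, and cold replicate 1 stood well above the other 3 cold libraries. The means were 2354 ± 686 CPM in cold and 1038 ± 190 CPM in control libraries, with a log2 fold change of 1.22 (SE 0.27). Its place by mean CPM among all IDs was 8 in cold and 39 in control libraries. The fold of this ID was 2.27 over all libraries, and 1.95 once the 3 libraries that stood apart were left out. The fold of MANES_10G027600 was 2.15 over all libraries and also 1.95 without them.

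Members of rank 3 and 4, both on chromosome 5, had the widest gaps between the groups among the 10 largest gains. Rank 3 stood at 1951, 1983, 1706 and 2222 CPM in cold replicates 1 to 4 and at 599.5, 477.6, 747.0 and 806.4 CPM in control replicates 1 to 4. This is a fold of 2.99, with the lowest cold library at 2.12 times the highest control library. Rank 4 stood at 1711, 1335, 1616 and 1465 CPM in cold replicates 1 to 4 and at 627.6, 587.3, 588.5 and 551.4 CPM in control replicates 1 to 4. Its 4 control libraries lay within a coefficient of variation (CV, the SD as a percentage of the mean) of 5.28%, and its gap of 2.13 was the widest of all members. Rank 11, on chromosome 11, was the only other member with a gap of at least 2, at 581.5, 571.8, 648.2 and 547.5 CPM in cold and 271.6, 209.7, 261.4 and 216.8 CPM in control replicates 1 to 4. Members given by rank beyond the first 2 were singled out after their values were seen.

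Other members of the first 10 were far less even. Rank 5 stood at 1494, 702.0, 1975 and 802.6 CPM in cold replicates 1 to 4 and at 625.9, 518.1, 247.8 and 553.2 CPM in control replicates 1 to 4. Cold replicates 1 and 3 were well above cold replicates 2 and 4, and its control replicate 3 lay far below the other 3 control libraries. Rank 7 also had cold replicates 1 and 3 above cold replicates 2 and 4 and a low control replicate 3, with 1017, 814.9, 1211 and 485.4 CPM in cold replicates 1 to 4 and 388.3, 366.7, 116.6 and 441.4 CPM in control replicates 1 to 4. Rank 9 had cold replicates 1 and 3 below cold replicates 2 and 4, with 383.1, 820.4, 391.0 and 1225 CPM in cold replicates 1 to 4 and 132.2, 177.5, 202.0 and 368.4 CPM in control replicates 1 to 4. The lowest cold library of rank 9 was only 1.04 times its highest control library, although its fold of 3.20 was among the highest. Its cold and control CVs of 57.1% and 46.9% were the largest of all members. Without the 3 libraries named above, the fold was 1.71 for rank 5, 2.11 for rank 7 and 4.10 for rank 9.

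**Figure D2:**
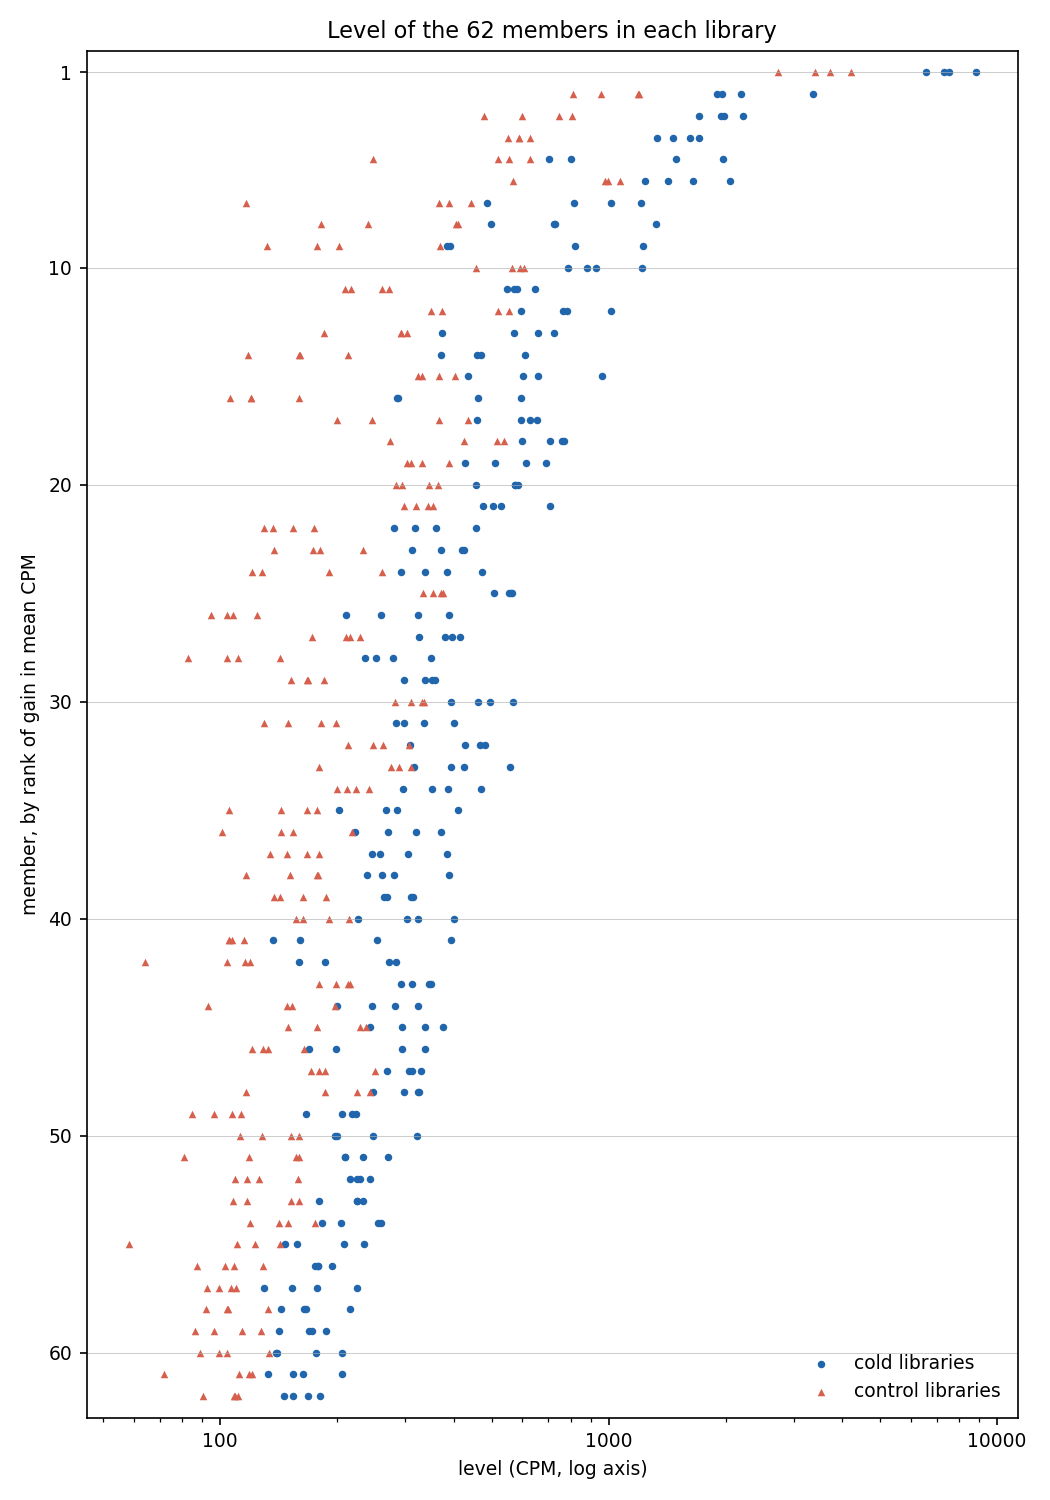
Level of each member (CPM, log axis) in every library, members ordered down the page by gain in mean CPM. Blue circles are the 4 cold libraries and red triangles the 4 control libraries, and the groups lie apart in every row because the rule asks for it. The leading ID stands alone at the right, and the gain declines from 4025 CPM at rank 1 to 57.6 CPM at rank 62.

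The first 10 members held 57.1% of the gain, and 41 members were needed for 90%. From rank 11 down the gain ran from 347.4 to 57.6 CPM, with a median of 140.5 CPM, and these 52 members together took 1.81% ± 0.10 of counts in cold and 0.988% ± 0.051 in control libraries. Folds were mostly small. They were below 2 for 42 members, from 2 to below 3 for 18, and from 3 to below 4 for 2, with a median of 1.81 and a highest value of 3.22. The highest fold was that of rank 16, on chromosome 11, at 285.1, 594.7, 460.9 and 287.2 CPM in cold and 120.3, 119.8, 106.2 and 159.8 CPM in control replicates 1 to 4. No member came near the upper limit, and the 1 abundant ID beyond it averaged 818.4 CPM in cold and 151.8 CPM in control libraries, a fold of 5.39. The median fold over all 2012 abundant IDs was 0.969.

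Control means of the members ran from 100.5 CPM to the 3510 CPM of the leading ID. They lay below 200 CPM for 36 members, between 200 and 500 CPM for 20 and at 500 CPM or more for 6. Within the set level and fold showed little relation, but the rule limited both and the control mean is the denominator of the fold. How they are related beyond the set cannot be read from it. The median fold was 1.79 for the 26 members at 200 CPM or more and 1.81 for the 36 below, and Spearman's rho of control mean against fold was 0.12 across the 62 members, which share the same libraries and are not independent. The members moved up the order of IDs by CPM. This follows from the rule, which asks for a cold mean of at least 1.5 times the control mean. By mean CPM, 13 members were among the 100 highest IDs in cold and 5 in control libraries, and 50 were among the 500 highest in cold and 22 in control libraries. All 62 were among the 1000 highest in cold libraries and 39 in control libraries, so the members are also part of what the top-1000 share counts.

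**Figure D3:**
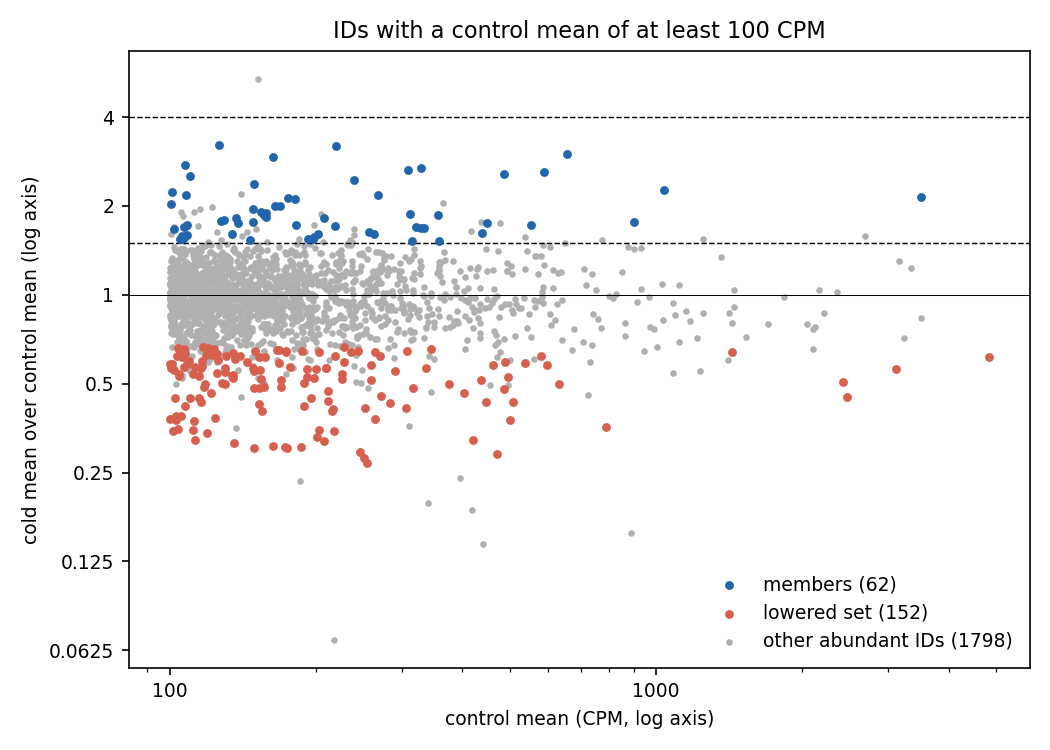
Cold mean over control mean against control mean (CPM), both on log axes, for the 2012 IDs with a control mean of at least 100 CPM. Blue points are the 62 members, red points the 152 IDs lowered by the same rule and grey points the other 1798, with dashed lines at 1.5 and 4. Most members lie below 500 CPM and the leading ID stands apart at 3510 CPM, and grey points between the dashed lines are IDs whose libraries overlapped.

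Some IDs missed the set by little. The member with the lowest fold stood at 1.525 (rank 25), and the nearest abundant ID with separate groups below the threshold stood at 1.474. Within 0.1 above the threshold there were 11 members, against 12 IDs below the threshold within 0.1 of it. The lowest control mean inside was 100.5 CPM and the nearest outside 98.9 CPM. The narrowest gap inside was 1.006 (rank 32) and the nearest overlap outside was a lowest cold library at 0.989 of the highest control library. Rank 25 shows that a low fold can go with close libraries. It stood at 552.6, 559.2, 564.7 and 507.9 CPM in cold and at 332.5, 375.3, 353.3 and 371.4 CPM in control replicates 1 to 4, with CVs of 4.75% and 5.47%. Rank 32 also had a low fold, at 1.64, but its groups nearly met, with a cold replicate 3 of 308.2 CPM just above a control replicate 4 of 306.4 CPM.

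The gap between the groups was below 1.1 for 19 members, from 1.1 to below 1.5 for 32 and at least 1.5 for 11, with a median of 1.22. The median CV was 19.1% in cold libraries (from 4.63% to 57.1%) and 17.7% in control libraries (from 4.24% to 46.9%). The rule favours close libraries, yet these medians were not below those of all 2012 abundant IDs, which were 17.9% in cold and 16.0% in control libraries. The 34 abundant IDs with the same folds but overlapping groups had median CVs of 35.4% in cold and 27.8% in control libraries. In 10 members both CVs were under 15%, among them ranks 4, 11, 20 and 25. The highest cold library was at least 2 times the lowest for 8 members, and the same held among control libraries for 10 members.

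**Figure D4:**
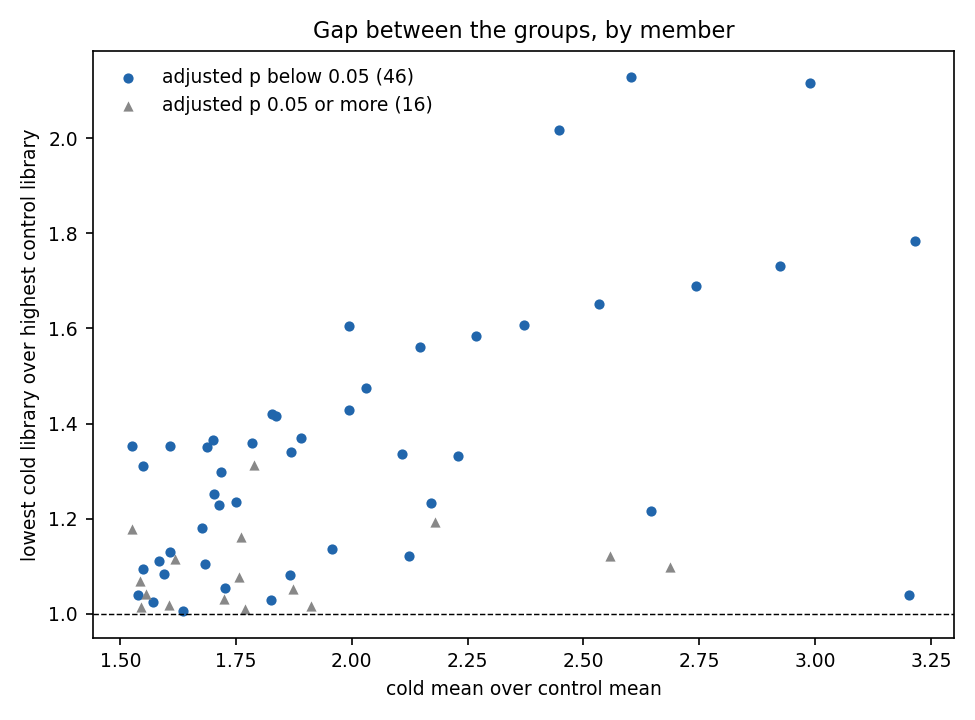
Lowest cold library over highest control library (vertical axis, dashed line at 1) against cold mean over control mean (horizontal axis) for the 62 members. Blue circles are the 46 members with an edgeR adjusted p below 0.05 and grey triangles the other 16. Ranks 3, 4 and 11 lie above a gap of 2, and rank 9 combines a fold of 3.20 with a gap of 1.04.

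The members did not vary as one block within the groups. In 21 of them (33.9%) cold replicates 1 and 3 both stood above cold replicates 2 and 4, and in 10 (16.1%) both stood below. Over all abundant IDs the shares were 17.6% and 20.1%. The rule chose the members by their levels in these same libraries, so this is not a like comparison. The 21 include ranks 1, 2, 4, 5, 6 and 7 and held 57.2% of the gain of the 62, or 49.3% of it without the 3 libraries that stood apart. Their median fold was 2.15, beside 1.775 for the 10 of the reverse order and 1.713 for the other 31. The cold levels that set this grouping also enter the folds, so the folds are not independent of it. Median log2 deviations of the 21 from the group mean were 0.23, -0.21, 0.13 and -0.19 in cold replicates 1 to 4. In control replicates 1 to 4 they were 0.10, 0.05, -0.34 and 0.01. Control replicate 3 was the lowest control library for 13 of these 21 members, and for 25.15% of all abundant IDs. The 10 members of the reverse order, with ranks 3, 9 and 10 among them, held 16.6% of the gain, or 23.6% without those libraries. Their deviations were -0.08, 0.38, -0.43 and 0.13 in cold and -0.27, 0.08, -0.02 and 0.24 in control replicates 1 to 4. For 8 of the 10, control replicate 1 was the lowest control library, as it was for 38.1% of all abundant IDs. How often either control pattern holds among abundant IDs with the same order of cold libraries was not tested. The top-1000 share is high in cold replicates 1 and 3, the libraries in which the 21 members stood higher, and its part in their levels was not tested.

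**Figure D5:**
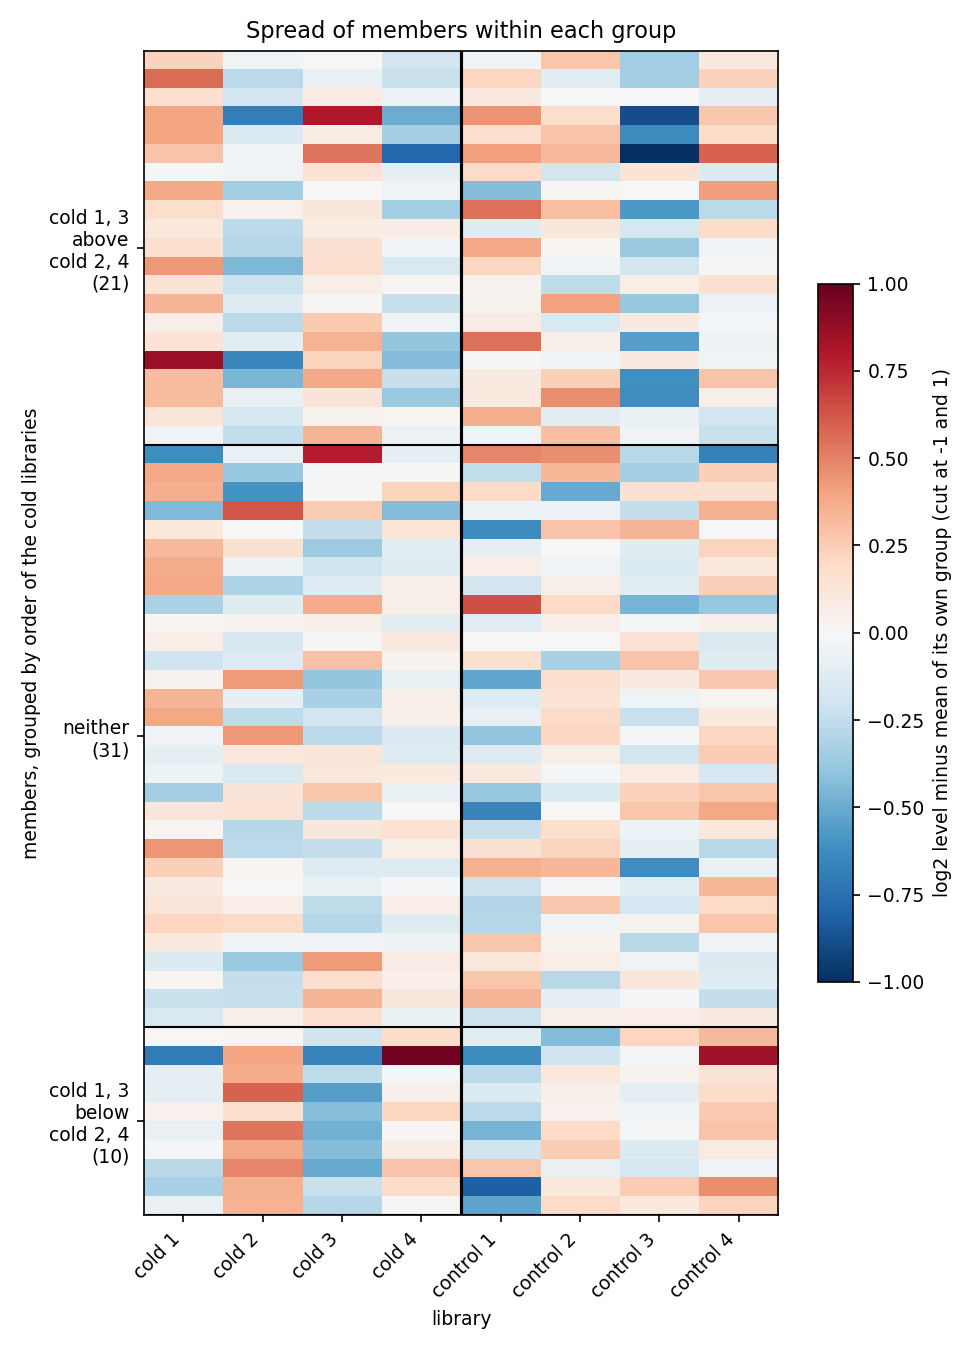
Log2 level of each member minus the mean of its own group, in 4 cold libraries (left) and 4 control libraries (right), red above and blue below the group mean. Rows are grouped by whether cold replicates 1 and 3 both stood above (21 members), both below (10) or neither (31), so the cold side of the first and last group is set by the grouping. On the control side, which the grouping did not use, control replicate 3 is low in most rows of the first group and control replicate 1 in most rows of the last.

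Among cold libraries, replicates 1 to 4 were the highest for 27, 11, 18 and 6 of the 62 members. Over all abundant IDs cold replicate 1 was highest for 28.3%, against 43.5% of the members. Levels in these libraries also decided membership, so this and the next comparisons with all abundant IDs are not of like sets. Among control libraries, control replicate 4 was highest for 25 members (40.3%, against 20.2% of all abundant IDs). Control replicate 3 was lowest for 23 (37.1%, against 25.15%). Control replicate 1 was lowest for 22 (35.5%), which is near its 38.1% over all abundant IDs. Deviations of 2 members from their group means correlated with a median r of 0.07 over the 8 libraries (quartiles -0.33 and 0.45 over 1891 pairs), and the median over all pairs of abundant IDs was 0.004. These are descriptions over few libraries that all members share. Without cold replicates 1 and 3 and control replicate 1, the median fold of the members was 1.75 and their folds ran from 1.37 to 4.10. It stayed at 1.5 or above for 52 members and was below that for 10.

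In edgeR's quasi-likelihood test over 26517 tested IDs, 46 of the 62 members had a Benjamini-Hochberg adjusted p below 0.05, where 4.06% of all tested IDs were called higher in the cold. Among tested IDs with a control mean of at least 100 CPM that share was 2.93%. Every cold library stood above every control library for 6.92% of tested IDs and for 5.91% of the abundant ones, and for all members by the rule. The members were chosen on this contrast, so the count is not evidence for them and only shows how the fit weighs their spread. The median log2 fold change was 0.88 over the 62 (range 0.65 to 1.72) and 0.01 over all tested IDs. The 16 members that were not called had adjusted p from 0.0505 to 0.0832. Their median SE was 0.24 against 0.19 for the 46, and their median gap was 1.07 against 1.33. They include ranks 5, 6 and 7, with log2 fold changes of 1.399 (SE 0.42), 0.86 (SE 0.27) and 1.47 (SE 0.43). DESeq2 called 62 of the 62 (8.06% of its tested IDs higher), and edgeR's glmTreat against a 1.5-fold change called 8 (0.954%). Leaving out control replicate 2, 3 or 4 gave 19, 20 and 25 called members (1.78%, 2.16% and 2.45% of tested IDs), leaving out cold replicate 4 gave 23 (2.21%), and leaving out the 3 libraries that stood apart gave 24 (2.3%). Without control replicate 1 the count was 42, and it was 37, 38 and 35 without cold replicates 1, 2 and 3. For these fits the share of tested IDs is not given.

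By the numbers in their IDs, members lay on 17 of the 18 chromosomes. They made up 3.08% of abundant IDs over the whole table. Chromosome 1 held 10 members among 167 abundant IDs and chromosome 7 held 6 among 91, the highest share at 6.59%. Chromosome 14 held 0 members among 117 abundant IDs. Only 1 pair of members were neighbours in the order of tested IDs, ranks 13 and 41, with consecutive numbers on chromosome 7. Rank 13 stood at 725.3, 373.0, 570.5 and 658.0 CPM in cold and at 302.3, 185.3, 291.6 and 292.7 CPM in control replicates 1 to 4. Rank 41 stood at 394.1, 137.2, 252.9 and 160.5 CPM in cold and at 107.6, 105.5, 115.0 and 105.3 CPM in control replicates 1 to 4. Both were highest in cold replicate 1 and lowest in cold replicate 2, but these libraries were highest for 27 and lowest for 24 of the 62 members. Deviations of the pair from their group means correlated with an r of 0.57 over the 8 libraries. Rank 41 had the most even control libraries of all members, with a CV of 4.24%, and its fold was 2.18 over all libraries and 1.37 without the 3 libraries named above. The sources used here do not say how reads shared by such neighbours were counted.

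The 122 tested IDs next to a member that were not members themselves had a median log2 fold change of 0.02, against 0.01 over all tested IDs. Of these, 65 (53.3%) had a positive log2 fold change, against 51.0% of all tested IDs. The edgeR test called 11 of the 122 higher (9.02%, beside the 4.06% of all tested IDs) and 1 lower (0.82%, against 5.09% of all tested IDs). Whether these shares depart from the background was not tested.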

How the data were processed

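The authors deposited a table of whole-number read counts per gene ID, with 1 column for each of 8 libraries and no scaling for depth or length, per the file header. Libraries were strand-specific and made from total RNA with a stranded kit, per the labels' protocols. STAR 2.7.10a, SAMtools 1.6 and bedtools 2.30 were used, per the submitters' processing notes. The read counter and its settings, the annotation and the build: not given in the sources used here. Values of overlapping genes or close copies are therefore uncertain. None of the IDs matched the 34312 rows of the RefSeq gene table for M.esculenta_v8 (0 matches), so lists that need gene descriptions, promoters and proteins were not used here.

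CPM was the count over the column sum, times 1000000. All IDs were fitted in R 4.3.3 with edgeR 4.0.16 on the counts as deposited (filterByExpr, TMM factors, robust quasi-likelihood F test, 2-sided, Benjamini-Hochberg adjustment, threshold 0.05). SEs were derived from the F statistic. Alternatives used DESeq2 1.42.0 and limma 3.58.1. Descriptions and plots used Python 3.11.15, pandas 2.3.3 and matplotlib 3.10.9. The fit was tested on simulated data. Correlations and the plot of deviations used log2 of CPM plus 0.5, and median deviations used log2 of CPM.

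The members, the downward set and the 3 libraries set aside were chosen with earlier results of these data known. The rule for IDs named in the text took the 2 members with the largest gain in mean CPM, since no names were at hand. No library was a repeat of another of its group (lowest chi-square per degree of freedom 63.4 over IDs with at least 10 counts).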

Additional observations from a re-analysis of the deposited data

Results flagged for a closer look

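For each member, and for the summed shares of the members and of the lowered set, the extreme library of each group was compared with its nearest neighbour. In 4 of 128 groups of 4 libraries 1 library stood far off by this measure. The measure marks 1 in 20 or so of independent groups chosen by no rule. These groups share their libraries and were chosen by the rule, so the count cannot be judged against that rate. The member of rank 13 stood at 185.3 CPM in control replicate 2, below 291.6 to 302.3 CPM in the other control libraries. The member of rank 20 stood at 455.0 CPM in cold replicate 2, below 573.9 to 586.2 CPM in the other cold libraries. The member of rank 56 stood at 194.5 CPM in cold replicate 1, above 176.0 to 178.8 CPM in the other cold libraries. The member of rank 62 stood at 90.2 CPM in control replicate 1, below 108.5 to 111.2 CPM in the other control libraries.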

How the results depend on the processing

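Over all alternatives, 68 of 95 recomputed values stayed on their side of the threshold, within 1.5 times the count or within the spread between libraries, and none changed direction. The values without 3 libraries for the lowered set and for the parts of the gain by order of the cold libraries were chosen after seeing the data. The share gain of 1.92 points was 1.79 to 2.01 with 1 library left out and 1.52 without the leading member. The number of members moved with the rule itself, to 149 at a control mean of at least 50 CPM, 26 at 200 CPM, 101 at the lower fold limit tried, 20 at a fold of at least 2 and 96 with no condition on overlap. It was 64 to 84 with 1 library left out, and 48 to 62 of these were among the 62. The fewest were shared without control replicate 1, with 48 of 68. It was 85 once the 3 libraries that stood apart were left out, 46 of them among the 62. With TMM-scaled CPM it was 64, of which 56 were among the 62. Between 7 and 8 members held 50% of the gain with 1 library left out. The 46 called members became 8 with glmTreat, which asks for a larger change, and 24 without the 3 libraries. With 1 library left out they were 19 to 42. They were 42, 19, 20 and 25 without control replicates 1 to 4, and 37, 38, 35 and 23 without cold replicates 1 to 4. All fits with libraries left out hold fewer samples, and why their counts differ was not tested.

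The log2 fold change of MANES_10G027600 stayed between 0.98 and 1.24, with adjusted p between 7.58e-08 and 0.188. It did not pass with glmTreat (1.14), with the replicate block (1.14), without the 3 libraries (0.978), or without control replicates 2 (1.24), 3 (1.02) or 4 (1.15). The log2 fold change of MANES_04G083800 stayed between 0.97 and 1.33, with adjusted p between 3.76e-05 and 0.181. It did not pass with glmTreat (1.22), without the 3 libraries (0.983), without control replicates 2 (1.18), 3 (1.11) or 4 (1.28), or without cold replicate 3 (1.24).

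No label says that libraries with the same number share more than the number. Correlations of their deviations were 0.12, 0.07, -0.33 and -0.05 for replicates 1 to 4, and 2 of 8 libraries correlated best with their own number. With the replicate block 26 members were called, where 2.23% of tested IDs were called higher; the cause was not tested. Scaling moved the median of all IDs by less than 0.1 on the log2 scale. Depth does not limit these abundant IDs.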
